A study of Mus musculus with 6 samples.

Results

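The major histocompatibility complex (MHC) class I genes and the immunoproteasome genes were examined in cultures labelled as C2C12 cells, a line of mouse myoblasts that form myotubes in low serum. The 10 genes were taken by name: *H2-K1*, *H2-D1*, *B2m*, *Tap1*, *Tap2*, *Tapbp*, *Psmb8*, *Psmb9*, *Psmb10* and *Nlrc5*. All 10 were listed among the 23231 genes with counts, and all 10 passed the low-count filter that left 14378 genes for testing. The study compared 3 libraries of dCas9-KRAB cells with 3 libraries of dCas9-KRAB-En5 cells. dCas9-KRAB is a Cas9 without cutting activity fused to a repressor domain. Cells of both groups carried it by lentivirus at a multiplicity of infection of 100, were selected with 2 μg/ml puromycin and were kept in 2% horse serum until day 5. dCas9-KRAB cells had no sgRNA against an enhancer, and dCas9-KRAB-En5 cells had 2 sgRNAs that bring the repressor to Myog-En5, an enhancer of *Myog*. The sources used here do not say whether the replicates came from separate transductions, so the p-values measure the spread between these libraries, which may be technical. Values per library follow in the order of replicates 1, 2 and 3.

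MHC class I molecules display peptides from inside the cell at its surface for cytotoxic T cells. A heavy chain (*H2-K1* or *H2-D1*) pairs with β2-microglobulin (*B2m*), the TAP transporter (*Tap1* and *Tap2*) pumps peptides into the endoplasmic reticulum, and tapasin (*Tapbp*) holds the empty molecule beside the transporter. In cells exposed to interferon, the catalytic subunits *Psmb8*, *Psmb9* and *Psmb10* replace *Psmb5*, *Psmb6* and *Psmb7* in the proteasome and alter the peptides it cuts. *Nlrc5* encodes the transactivator of class I genes. Resting muscle fibers are known for low class I expression.

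*Psmb10* was the member that differed most, at a mean of 473 ± 240 TPM (a level per gene length, scaled per library; SD, n = 3) in dCas9-KRAB cells and 39.4 ± 19.9 TPM (SD, n = 3) in dCas9-KRAB-En5 cells. *Psmb8* and *Psmb9*, the other immunoproteasome subunits, were also listed at lower TPM in every dCas9-KRAB-En5 library than in any dCas9-KRAB library. *Nlrc5* lay the other way, at 2.36 ± 1.27 TPM and 9.07 ± 6.29 TPM (SD, n = 3 each). The heavy chains, *B2m*, the transporter and tapasin overlapped between the groups in TPM. Calls needed an adjusted p up to 0.01 and a log2 fold change of 1 or more in size. edgeR called 0 of the 10 lower and 0 higher, where it called 4.67% of all genes tested lower and 1.52% higher. At an unadjusted p under 0.05 there were 3, namely *Psmb9*, *Psmb10* and *Nlrc5*, where 32.9% of all genes tested had such a p. The same share is the background of the counts at this p given for the lists further on. DESeq2 called 1 of the 10, *Psmb10*, lower, where it called 8.66% of all genes lower and 5.88% higher. edgeR with the replicate number as a block also called *Psmb10* alone, where it called 6.79% of all genes lower and 3.94% higher. For each fit, these shares are also the background of the calls in the lists further on. The median log2 fold change of the 10 was -0.52, against 0.08 for all genes tested.

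**Figure D1:**
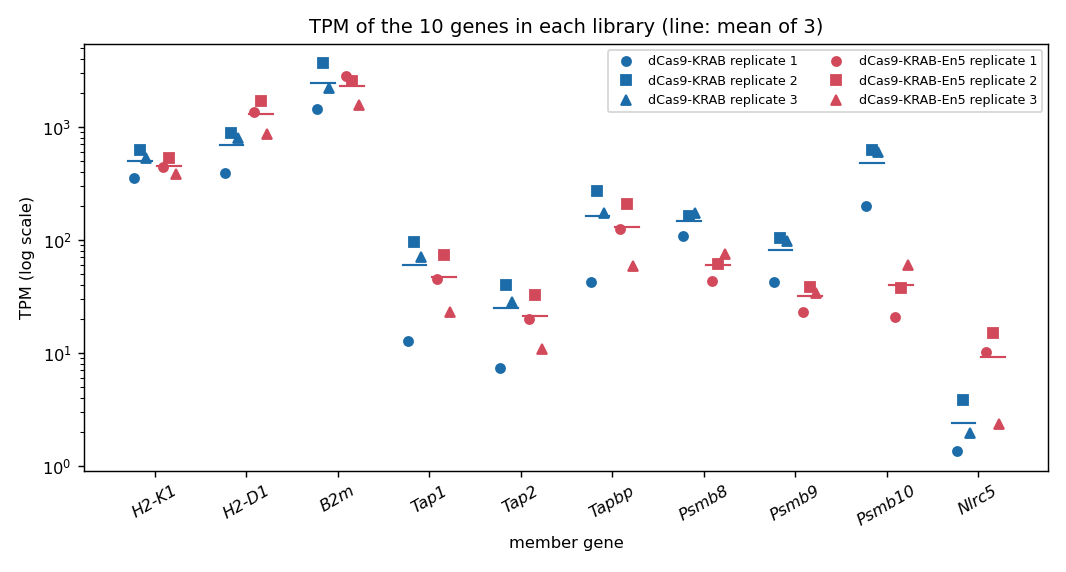
TPM of each of the 10 genes on a log axis, 3 dCas9-KRAB libraries in blue and 3 dCas9-KRAB-En5 libraries in red, with a line at the mean of each group. The red points of *Psmb8*, *Psmb9* and *Psmb10* lie below all blue points of the same gene, and those of the other 7 genes overlap with the blue points.

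The libraries held 31831093 to 73988425 counts, so that 3 counts corresponded to 0.0405 to 0.0942 CPM (counts scaled to the library total), and this limit covers counting error alone. 1 library, dCas9-KRAB-En5 replicate 3, stood apart, with 13991 genes listed against 17084 to 19395 elsewhere and 20.6% of its counts in ribosomal protein genes against 9.12% to 16.7%. edgeR called 671 genes lower and 219 higher with TMM scaling, and 516 lower and 70 higher when scaled by total counts alone. *Myog*, whose enhancer was targeted, was counted 43211, 68488 and 74845 times in the dCas9-KRAB libraries and 12, 0 and 0 times in the dCas9-KRAB-En5 libraries. The labelled cell type was checked with 10 myoblast and myotube markers. Their summed level was 3764 to 8977 TPM in dCas9-KRAB libraries and 8.41 to 15.8 TPM in dCas9-KRAB-En5 libraries, so these markers were nearly absent from the latter. *Myod1*, the factor that defines myoblasts, had 1705, 7697 and 6598 counts against 3, 1 and 0, and *Cdh15*, a cadherin of satellite cells and myoblasts, 1920, 10591 and 8445 against 6, 1 and 121. By these markers the label of a myoblast line is not borne out in the dCas9-KRAB-En5 libraries, and each difference between the groups given here is one between cultures that differ in this way. In bulk RNA, fewer cells of a type and less RNA per cell cannot be told apart.

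Macrophage markers were present in both groups, and their summed level was higher in the dCas9-KRAB-En5 libraries. Of 15, 8 reached at least 10 TPM in all 6 libraries. *Tyrobp* (1048 to 2547 TPM), *Cd14* (525 to 3398 TPM) and *Fcer1g* (606 to 891 TPM) had the highest means, and *Mrc1* was at 0 in all 6. The summed level of the list was 3870 to 4708 TPM in dCas9-KRAB libraries and 5454 to 8440 TPM in dCas9-KRAB-En5 libraries. edgeR called 1 of the 14 tested, *Adgre1*, higher (log2 fold change 2.68 ± 0.54, SE, adjusted p = 0.00706), a call kept in 6 of 15 alternative fits. Of all genes tested, edgeR called 1.52% higher and 4.67% lower. The median log2 fold change of the 14 was 0.53 and 5 of them were negative, with *Mpeg1* (-1.10) and *Aif1* (-1.63) below in TPM in every dCas9-KRAB-En5 library. *Cd14* (1.14) and *Tyrobp* (0.56), which hold much of the sum, were not called. Macrophages express the class I and immunoproteasome genes too. Of the 10 T and NK cell markers, 7 had no counts in any library, among them *Cd3e*, *Cd8a* and *Ncr1*. *Lck* of that list was present in every library, at 6.94 to 7.60 TPM in dCas9-KRAB and 3.24 to 5.11 TPM in dCas9-KRAB-En5 libraries. It was not called (log2 fold change -0.95, edgeR, adjusted p = 0.180). *Ms4a1* of the 7 B cell markers was at 0, while *Ighm* stood at 56.7 to 205 TPM. *Pax5* had 17, 108 and 72 counts in the dCas9-KRAB libraries and 0 in each dCas9-KRAB-En5 library and was called lower (edgeR, adjusted p = 0.00821), at least 11.9-fold against 3 counts per library. The 8 dendritic cell markers summed to 0.481 to 11.1 TPM and the 8 endothelial markers to 4.10 to 12.7 TPM. Within the dendritic list *Siglech* was called lower, from 338, 264 and 456 counts to 0 in each library (at least 72.8-fold, edgeR, adjusted p = 0.00032), and *Ccr7* higher, from 0, 3 and 10 counts to 451, 106 and 19 (log2 fold change 5.95, edgeR, adjusted p = 0.00779). Of 14 alternative fits each, the call was kept in 13 for *Siglech*, 7 for *Ccr7* and 6 for *Pax5*. The 8 fibroblast and mesenchymal markers summed to 216 to 575 TPM in dCas9-KRAB libraries and 255 to 1158 TPM in dCas9-KRAB-En5 libraries. Most of that sum was *Vim* (147 to 375 and 235 to 1133 TPM). *Col1a1* was called lower (-3.65, edgeR, adjusted p = 0.0062), and *Col1a2* (-2.72, 0.0249), *Col3a1* (-1.94, 0.0375) and *Dcn* (-1.34, 0.0953) did not pass. The part of all these markers in the results was not tested.

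Of the 10 genes, 7 lie on chromosome 17 (GRCm38, GENCODE M21), within chr17:33915899-35267499. *Psmb9* (chr17:34181987-34187764, minus strand), *Tap1* (chr17:34187553-34197225, plus strand), *Psmb8* (chr17:34197721-34201454, plus strand) and *Tap2* (chr17:34203527-34216321, plus strand) are direct neighbors. The exons of *Psmb9* and *Tap1* overlap by 212 bases on opposite strands. The sources used here do not say whether reads were counted by strand, so reads of this overlap cannot be assigned to one of them. Exons of *Tapbp*, *Tap2*, *Psmb8* and *Nlrc5* also overlap exons of other genes on the opposite strand, with the same limit. *Tapbp* lies at chr17:33915899-33929292, *H2-K1* at chr17:33996017-34000347 and *H2-D1* at chr17:35262730-35267499. The others are *B2m* at chr2:122147686-122153083, *Psmb10* at chr8:105935735-105938444 and *Nlrc5* at chr8:94434356-94527272. *Psmb10* and *Nlrc5*, the members with the largest differences in each direction, are both on chromosome 8 and outside the MHC. *B2m*, also outside the MHC, differed least (log2 fold change -0.19). *Psmb9* and *Psmb8*, with the next largest decreases (-1.33 and -1.23), lie among the genes on chromosome 17.

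The sequences upstream of *B2m*, which differed little between the groups, and of *Psmb10*, which differed most, are shown to set the promoters of these members beside each other (RefSeq, GRCm38.p6, 5′ to 3′ on the strand of the gene, bases covered by annotated exons left out). *B2m* is chr2:122147437-122147685 on the plus strand and *Psmb10* is chr8:105938445-105938642 on the minus strand. Capitals mark matches on either strand to the interferon-stimulated response element core (GAAA, any 2 bases and GAAA), the gamma-activated site TTCNNNGAA, the CCAAT box CCAAT, the E-box CANNTG or the antioxidant response core TGACNNNGC.
B2m: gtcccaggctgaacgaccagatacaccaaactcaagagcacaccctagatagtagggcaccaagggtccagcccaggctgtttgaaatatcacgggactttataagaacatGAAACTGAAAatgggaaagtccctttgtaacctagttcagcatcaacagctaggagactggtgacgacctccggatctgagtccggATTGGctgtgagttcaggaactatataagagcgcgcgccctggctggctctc
Psmb10: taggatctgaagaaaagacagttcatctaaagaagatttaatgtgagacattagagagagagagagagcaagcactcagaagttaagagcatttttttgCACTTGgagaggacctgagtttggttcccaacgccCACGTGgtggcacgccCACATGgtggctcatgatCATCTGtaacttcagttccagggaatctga
The *B2m* sequence held 1 response element core, found in 3.04% of 27025 promoter windows of 250 bases, and 1 CCAAT box, found in 34.5%. The *Psmb10* sequence held E-boxes alone, the motif bound by myogenic and other basic helix-loop-helix factors. An E-box occurs in 66.0% of windows, which are longer than the 198 bases shown. The window of *Tapbp*, which overlapped between the groups in TPM, held an E-box as well. In RefSeq, *Tap1* and *Psmb9* are read in opposite directions from start sites 226 bases apart, so that their windows share 225 bases. GENCODE differs: there *Psmb9* starts at chr17:34187764, its exons overlap those of *Tap1*, and the shared stretch lies within *Psmb9*. That shared stretch held a CCAAT box and E-boxes, and the *Psmb8* window held a gamma-activated site, found in 7.18% of windows. The *Psmb8* window (chr17:34197945-34198194) is upstream of the RefSeq start but lies within *Psmb8* as annotated in GENCODE. These matches describe letters, not bound factors. Of the 10 genes, 8 were found in the RefSeq promoter table, all but *Tap2* and *Nlrc5*.

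The immunoproteasome subunits were compared first. *Psmb10* encodes the subunit with trypsin-like activity. It was at 197, 627 and 594 TPM in the dCas9-KRAB libraries and at 20.5, 37.4 and 60.1 TPM in the dCas9-KRAB-En5 libraries. Every dCas9-KRAB library was higher than every dCas9-KRAB-En5 library, and dCas9-KRAB replicate 1 was the lowest of its group. The counts were 9109, 40042 and 45353 against 741, 1082 and 2347. The fitted level was 10.3-fold lower in dCas9-KRAB-En5 cells (log2 fold change -3.37 ± 0.76, SE, 95% interval -5.03 to -1.71), and edgeR's adjusted p of 0.0121 missed the cutoff of 0.01. Same-numbered replicates deviated together, and with that number as a block the log2 fold change was -3.68 (edgeR, adjusted p = 0.000226) and passed it. DESeq2 gave -3.35 (adjusted p = 3.48e-05) and passed as well. The gene passed in 8 of 16 alternatives, with edgeR, DESeq2 or limma adjusted p-values of 1.43e-06 to 0.0456, and was lower in all 16.

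*Psmb8* encodes the subunit with chymotrypsin-like activity. It was at 107, 163 and 173 TPM in the dCas9-KRAB libraries and at 42.8, 60.3 and 74.1 TPM in the dCas9-KRAB-En5 libraries. The groups did not overlap in TPM, but did in CPM scaled by TMM, where dCas9-KRAB-En5 replicate 3 (247 CPM) lay above dCas9-KRAB replicate 1 (236 CPM). The log2 fold change was -1.23 ± 0.57 (SE, edgeR, adjusted p = 0.158). *Psmb9* encodes the immunoproteasome subunit that takes the place of the caspase-like one. It was at 42.1, 103 and 96.8 TPM against 23.03, 38.3 and 33.6 TPM. These groups also overlapped in CPM there, with 121 CPM in dCas9-KRAB-En5 replicate 3 and 100.2 CPM in dCas9-KRAB replicate 1. The log2 fold change was -1.33 ± 0.55 (SE, edgeR, adjusted p = 0.117). Without dCas9-KRAB-En5 replicate 3, edgeR called *Psmb8* (-2.16, adjusted p = 0.00168), *Psmb9* (-2.03, adjusted p = 0.00555) and *Psmb10* (-4.66, adjusted p = 0.000298) lower, where it called 14.0% of all genes lower and 11.7% higher.

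In TPM, 3 of the 10 members were below in all dCas9-KRAB-En5 libraries and 0 above, where 19.7% and 7.76% of all genes tested were. In CPM scaled by TMM, 1 member was below (*Psmb10*) and 2 were above (*H2-D1* and *Nlrc5*), where 20.2% and 15.4% of all genes were. The TMM factor of dCas9-KRAB-En5 replicate 3 was 0.730, against 0.923 to 1.22 elsewhere. TPM divides each library by its sum of counts per gene length and CPM by its scaled sum of counts, so the place of that library depends on the scale.

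The standard catalytic subunits, which the immunoproteasome subunits replace, were lower in TPM too. *Psmb5* was at 702, 533 and 610 TPM in the dCas9-KRAB libraries and at 98.8, 108 and 304 TPM in the dCas9-KRAB-En5 libraries. *Psmb6* was at 523, 404 and 446 TPM against 74.1, 88.4 and 324 TPM. *Psmb7* was at 106, 51.7 and 75.2 TPM against 28.8, 29.0 and 29.6 TPM. All 3 genes were below in all dCas9-KRAB-En5 libraries in TPM, as were 19.7% of all genes tested. In CPM scaled by TMM 0 of the 3 were, where 20.2% of all genes were. edgeR called 0 of the 3 (log2 fold changes -1.57, -1.14 and -1.45, adjusted p = 0.155, 0.342 and 0.0805), with 1 at an unadjusted p under 0.05, and DESeq2 called 0. Without dCas9-KRAB-En5 replicate 3, edgeR called all 3 lower, as it did 14.0% of all genes.

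The ratio of an immunoproteasome subunit to the subunit it replaces does not depend on the scaling between libraries. *Psmb10* made up 65.0%, 92.4% and 88.8% of the summed TPM of *Psmb10* and *Psmb7* in the dCas9-KRAB libraries, and 41.6%, 56.4% and 67.1% in the dCas9-KRAB-En5 libraries. dCas9-KRAB replicate 1 lay below dCas9-KRAB-En5 replicate 3, so the groups overlapped, while each dCas9-KRAB-En5 library was below the dCas9-KRAB library of the same number. The log2 ratio differed by -2.19 (2.49 ± 1.42 and 0.30 ± 0.76, SD, n = 3 each, exact permutation test, two-sided, p = 0.2, 0.5 adjusted over 5 ratios). The smallest p that 3 against 3 libraries allow is 0.1. *Psmb8* made up 13.2% to 23.4% of its pair with *Psmb5* in dCas9-KRAB cells and 19.6% to 35.9% in dCas9-KRAB-En5 cells (difference of log2 ratios 0.72, exact permutation test, two-sided, p = 0.3, 0.5 adjusted). Of the stretches of 50 bases in *Psmb5* transcripts, 54.1% occur in transcripts of other genes, so its counts and this ratio are uncertain. That share is 1.05% for *Psmb6* and 9.26% for *Psmb7*. *Psmb9* made up 7.44% to 20.3% of its pair with *Psmb6* and 9.41% to 30.2% (0.55, exact permutation test, two-sided, p = 0.5, 0.625 adjusted). Thus the point estimates of the *Psmb8* and *Psmb9* ratios had the opposite sign to that of *Psmb10*, and no ratio passed the test.

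**Figure D2:**
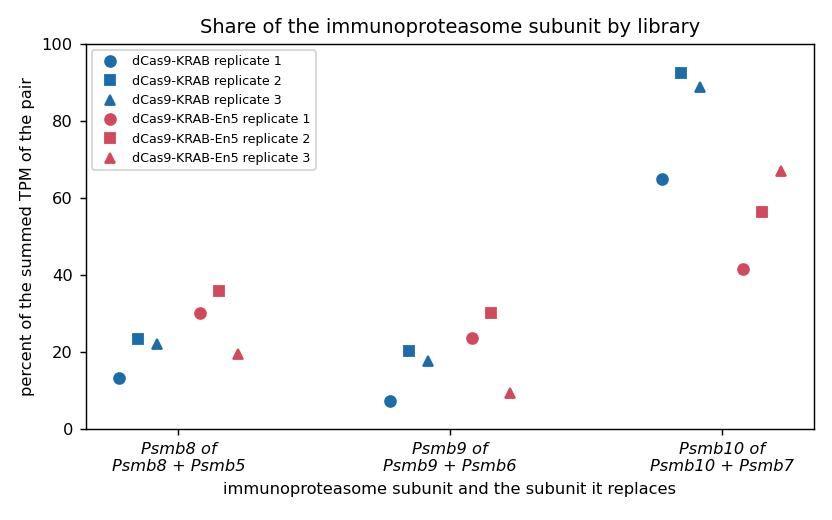
Percent of the summed TPM of each catalytic pair that comes from the immunoproteasome subunit, by library, dCas9-KRAB in blue and dCas9-KRAB-En5 in red. The share of *Psmb10* runs from 65.0% to 92.4% in blue and from 41.6% to 67.1% in red, and the colors overlap in all 3 pairs.

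The transporter and tapasin varied widely among dCas9-KRAB libraries. *Tap1* was at 12.6, 95.2 and 70.9 TPM in the dCas9-KRAB libraries and at 45.2, 72.4 and 22.99 TPM in the dCas9-KRAB-En5 libraries. *Tap2* was at 7.24, 39.6 and 27.8 TPM against 19.6, 32.4 and 10.8 TPM. *Tapbp* was at 42.6, 271 and 174 TPM against 124, 205 and 58.1 TPM. In all 3 genes dCas9-KRAB replicate 1 was the lowest library of the 6 and dCas9-KRAB replicate 2 the highest. The log2 fold changes were -0.58 ± 0.61, -0.47 ± 0.54 and -0.58 ± 0.59 (SE, edgeR, adjusted p = 0.547, 0.585 and 0.528), and the 95% interval of *Tap1* reached from -1.91 to 0.76. The subunits of the transporter kept close to each other within a library. *Tap1* was 1.74-, 2.40- and 2.55-fold as high as *Tap2* in the dCas9-KRAB libraries and 2.30-, 2.23- and 2.13-fold in the dCas9-KRAB-En5 libraries (difference of log2 ratios 0.01, exact permutation test, two-sided, p = 1, 1 adjusted).

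The class I molecule itself was the most abundant product of the set. *B2m*, the light chain, was at 1420.1, 3635 and 2184 TPM in the dCas9-KRAB libraries and at 2791.5, 2539 and 1556 TPM in the dCas9-KRAB-En5 libraries. The groups overlapped, and the log2 fold change was -0.19 ± 0.49 (SE, edgeR, adjusted p = 0.814, 95% interval -1.27 to 0.88). *H2-K1*, a classical heavy chain, was at 349, 622 and 526 TPM against 442, 531 and 378 TPM. It overlapped as well, with a log2 fold change of -0.22 ± 0.49 (SE, edgeR, adjusted p = 0.780, 95% interval -1.28 to 0.84). *H2-D1*, the other classical heavy chain, was at 390.2, 881 and 796 TPM against 1336, 1702 and 870.2 TPM. Its groups overlapped in TPM by dCas9-KRAB-En5 replicate 3 alone. In CPM scaled by TMM they did not, at 655, 1244 and 1346 CPM against 1566, 1724 and 2211 CPM. The log2 fold change was 0.76 ± 0.49 (SE, edgeR, adjusted p = 0.308, 95% interval -0.32 to 1.84) and did not pass. These intervals leave room for a change of more than 1 on the log2 scale in *H2-K1*, *B2m* and *H2-D1*.

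*B2m* was 1.92-, 2.42- and 1.65-fold as high as both heavy chains together in the dCas9-KRAB libraries and 1.57-, 1.14- and 1.25-fold in the dCas9-KRAB-En5 libraries. All dCas9-KRAB-En5 libraries were lower, and the log2 ratio differed by -0.59 (0.98 ± 0.28 and 0.38 ± 0.24, SD, n = 3 each, two-sided exact permutation test, p = 0.1, 0.5 adjusted over 5 ratios). Heavy chain counts are uncertain in part: 9.63% of the words of 50 bases of *H2-K1* and 12.8% of those of *H2-D1* occur in transcripts of other genes. Other members share words too, with 23.2% for *Tapbp*, 11.9% for *Psmb8* and 11.6% for *Tap2*. Most of these are shared with genes that overlap them on the opposite strand (*Gm19412*, *Gm20496* and *Gm15821*). For these 3 members the limit is therefore mainly the unknown strand setting. *Psmb9*, *Tap1* and *Nlrc5* share 4.19%, 3.33% and 0.339%, while *B2m* and *Psmb10* share none. C2C12 cells are derived from C3H mice, whose class I alleles differ from those of the reference strain, and the effect on the heavy chain counts was not tested.

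*Nlrc5*, the transactivator, was the lowest member in both groups. It was at 1.34, 3.79 and 1.95 TPM in the dCas9-KRAB libraries and at 10.1, 14.8 and 2.34 TPM in the dCas9-KRAB-En5 libraries. dCas9-KRAB-En5 replicate 3 lay among the dCas9-KRAB libraries in TPM, and above them in CPM scaled by TMM, where the libraries were at 7.41, 17.6 and 10.9 CPM against 38.9, 49.4 and 19.6 CPM. The fitted level was higher in dCas9-KRAB-En5 cells (log2 fold change 1.59 ± 0.51, SE, edgeR, adjusted p = 0.0526, 95% interval 0.47 to 2.70) and did not pass the cutoff. Without dCas9-KRAB-En5 replicate 3 it did (log2 fold change 1.797, edgeR, adjusted p = 0.00663), as did 11.7% of all genes in that direction.

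**Figure D3:**
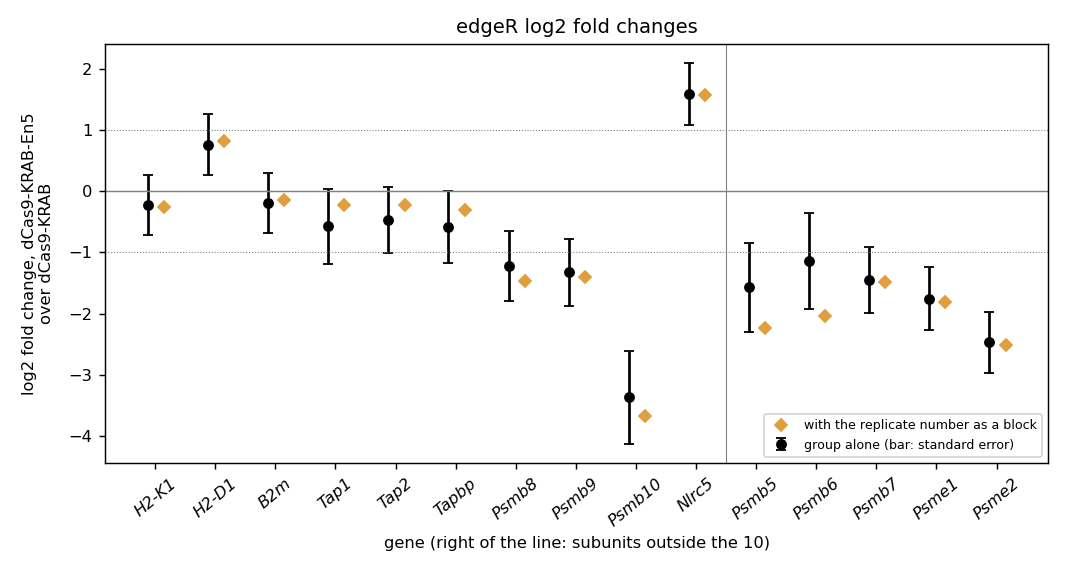
edgeR log2 fold change of dCas9-KRAB-En5 over dCas9-KRAB for the 10 genes and 5 further proteasome genes. Black points with bars are the fit with group alone and its standard error, diamonds the fit with the replicate number as a block, and dotted lines mark a log2 fold change of -1 and 1. *Psmb10* lies lowest at -3.37 and *Nlrc5* highest at 1.59.

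The order of the levels per length was *B2m*, *H2-D1* and *H2-K1* from the top in both groups. *Psmb10* came next in dCas9-KRAB cells at 473 TPM, above *Tapbp* (162 ± 115 TPM, SD, n = 3), and behind *Tapbp*, *Psmb8* and *Tap1* in dCas9-KRAB-En5 cells at 39.4 TPM. Some neighbors in this order of means overlapped, and *H2-K1* was above *Psmb10* in only 1 of the 3 dCas9-KRAB libraries. In dCas9-KRAB cells only *B2m* over *H2-D1*, *Psmb8* over *Psmb9* and *Tap2* over *Nlrc5* were separate in range among neighbors. In dCas9-KRAB-En5 cells this held only for *H2-D1* over *H2-K1* and for *H2-K1* over *Tapbp*.

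Across the 6 libraries the 10 genes did not share a single pattern. Centered log2 CPM of *Tap1*, *Tap2* and *Tapbp* were lowest in dCas9-KRAB replicate 1 (-1.63, -1.28 and -1.34), where *Psmb8* (0.38) and *Psmb10* (0.83) stood above their own mean. The mean of the 10 was -0.63, 0.77 and 0.65 in the dCas9-KRAB libraries and -0.61, -0.30 and 0.12 in the dCas9-KRAB-En5 libraries. Each member is part of this mean. *Tap2* followed it most closely (r = 0.87 over 6 libraries in 2 groups, a description), and *H2-D1* (r = 0.23) and *Nlrc5* (r = -0.25) least. Outside the 10, the genes most like the mean were *E2f1*, *Gsk3a*, *Ap1g2*, *Anapc2* and *Unc45a* (r from 0.995 to 0.997 over the same 6 libraries).

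**Figure D4:**
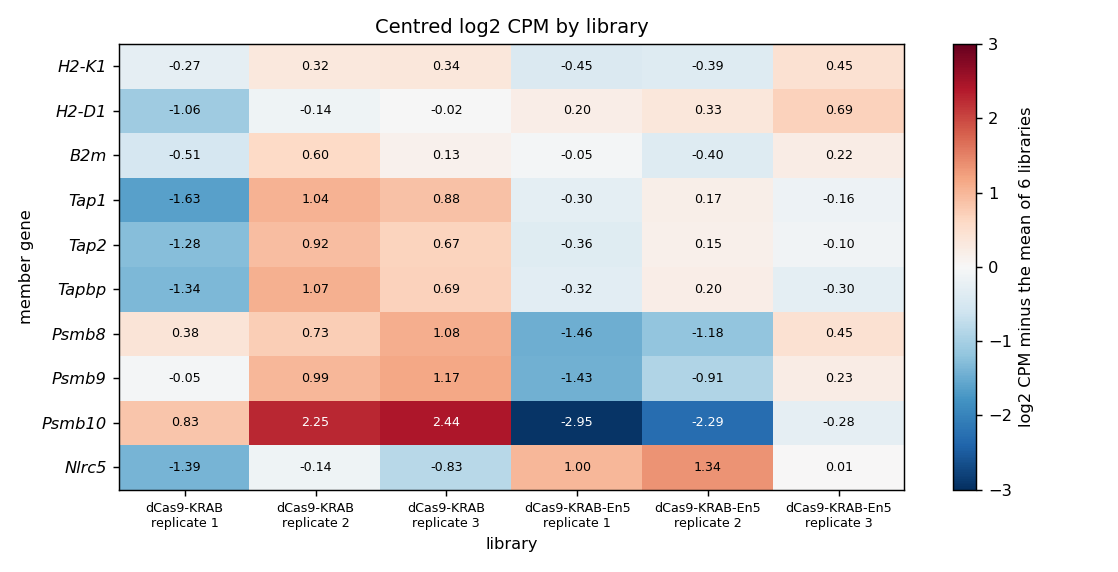
Log2 CPM of each of the 10 genes minus its mean over the 6 libraries, with red above and blue below the mean. *Psmb10* runs from 2.44 in dCas9-KRAB replicate 3 to -2.95 in dCas9-KRAB-En5 replicate 1, and *Tap1*, *Tap2* and *Tapbp* are lowest in dCas9-KRAB replicate 1.

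The rest of the proteasome was set beside the members. Of 16 other subunits and assembly factors of the 20S core, edgeR called 0 lower and 0 higher, with 8 at an unadjusted p under 0.05 and 0 called by DESeq2. Their median log2 fold change was -1.11, against 0.08 for all genes, and 15 of 16 were negative. In TPM 14 of the 16 were below in all dCas9-KRAB-En5 libraries, where 19.7% of all genes tested were. In CPM scaled by TMM 9 of the 16 were, where 20.2% of all genes were. *Psmb2*, a core subunit, had the smallest adjusted p (log2 fold change -1.49, edgeR, adjusted p = 0.0376), followed by the assembly chaperones *Psmg2* (-1.45, 0.0562) and *Psmg1* (-1.53, 0.0581). Of 18 subunits of the 19S cap, which recognizes ubiquitinated proteins, 0 were called by edgeR, with 7 at an unadjusted p under 0.05, 1 called lower with the replicate block and 3 lower by DESeq2. The median was -0.47. *Psmc3* was the lowest of them (-2.15, edgeR, adjusted p = 0.0106, 0.00431 with the block).

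*Psme1* and *Psme2* encode the PA28 activator, which interferon also induces. *Psme2* was at 316, 241 and 298 TPM in the dCas9-KRAB libraries and at 51.4, 68.1 and 46.5 TPM in the dCas9-KRAB-En5 libraries. The groups were far apart, and edgeR called *Psme2* lower (5.55-fold, log2 fold change -2.47 ± 0.49, SE, adjusted p = 0.00678). The call was lost in 5 of the 6 fits without 1 library, all but that without dCas9-KRAB-En5 replicate 3, at adjusted p-values up to 0.0400. Of the words of 50 bases of *Psme2*, 28.3% occur in transcripts of other genes. *Psme1* was at 186, 365 and 328 TPM against 78.0, 105 and 83.1 TPM (-1.76 ± 0.51, SE, edgeR, adjusted p = 0.0365; DESeq2 called it at 0.00734). Of the 4 activator genes, 1 was called lower, where edgeR called 4.67% of all genes lower, and the median log2 fold change was -1.002.

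Of 11 other peptide loading and trimming genes, 0 were called by edgeR, with 4 at an unadjusted p under 0.05 and a median of 0.44. *Lnpep*, an aminopeptidase of endosomes, had the smallest adjusted p (log2 fold change 2.90, edgeR, adjusted p = 0.0174). It was called higher with the replicate block (2.56, edgeR, adjusted p = 0.00188) and by DESeq2. *Uggt1*, which tests the folding of glycoproteins, stood at 1.71 (adjusted p = 0.0624). Of 18 other class I heavy chain and class I-like genes, 15 were tested and 0 called by edgeR, with 9 at an unadjusted p under 0.05 and a median of -0.23. They went both ways. *H2-Q7* (2.12, edgeR, adjusted p = 0.0143) was called higher and *H2-T24* (-2.01, 0.0269) lower with the block (adjusted p = 0.00634 and 0.00645). *Mr1*, which presents vitamin metabolites, stood at 2.17 (0.0305) and *H2-M3*, which presents formylated peptides, at 1.39 (0.0409). Of the words of *H2-Q7*, 26.5% are shared with other transcripts.

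Of 14 regulators of class I transcription, edgeR called 0, with 8 at an unadjusted p under 0.05, 1 called higher by DESeq2 and a median of 0.52. Subunits of the factors that bind class I promoters went both ways, with *Nfya* at 1.81 and *Nfyc* at -1.43 (edgeR, adjusted p = 0.0303 and 0.0414). *Rfx5*, a subunit of the factor that binds the X box, was at 1.38, 2.26 and 1.98 TPM in the dCas9-KRAB libraries and at 9.94, 11.8 and 1.27 TPM in the dCas9-KRAB-En5 libraries (log2 fold change 1.60, edgeR, adjusted p = 0.0676). As in *Nlrc5*, dCas9-KRAB-En5 replicate 3 was not among the high libraries in TPM. In CPM scaled by TMM, that library lay above all dCas9-KRAB libraries in *Nlrc5* (19.6 CPM) but not in *Rfx5* (6.89 CPM). *Irf1*, an activator of *Psmb9*, *Tap1* and class I genes, was at 12.1, 29.0 and 25.0 TPM against 11.2, 14.4 and 4.07 TPM (-1.44, edgeR, adjusted p = 0.0467). *Ciita*, the transactivator of class II genes, had 16, 31 and 10 counts in the dCas9-KRAB libraries and 0 in each dCas9-KRAB-En5 library, which is at least 3.92-fold lower against 3 counts per library. It did not pass the low-count filter.

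Interferon genes were called in both directions. Of 22 listed, 15 were tested, 3 were called lower and 1 higher, where edgeR called 4.67% of all genes lower and 1.52% higher. The median log2 fold change was 0.23. *Usp18*, which restrains interferon signaling, fell (log2 fold change -2.91, edgeR, adjusted p = 0.00313), as did the interferon regulatory factors *Irf7* (-2.96, 0.00714) and *Irf9* (-2.13, 0.00731). *Irf7* was at 232, 630.01 and 589 TPM in the dCas9-KRAB libraries and at 44.4, 93.6 and 57.3 TPM in the dCas9-KRAB-En5 libraries. *Socs3*, an inhibitor of cytokine receptors, rose (3.41, edgeR, adjusted p = 0.00656), from 15.1, 65.5 and 58.8 TPM to 1109, 532 and 185 TPM. None of the 3 lower calls was made without dCas9-KRAB replicate 2, without dCas9-KRAB replicate 3 or without dCas9-KRAB-En5 replicate 1, and 1 of the 3 was made without dCas9-KRAB replicate 1 or without dCas9-KRAB-En5 replicate 2. That of *Socs3* was not made without any 1 of the dCas9-KRAB libraries. *Ifnb1*, the gene of interferon beta, had 5, 2 and 13 counts in the dCas9-KRAB libraries, and *Ifng*, the gene of interferon gamma, 4, 0 and 0. Both had 0 counts in all dCas9-KRAB-En5 libraries.

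**Figure D5:**
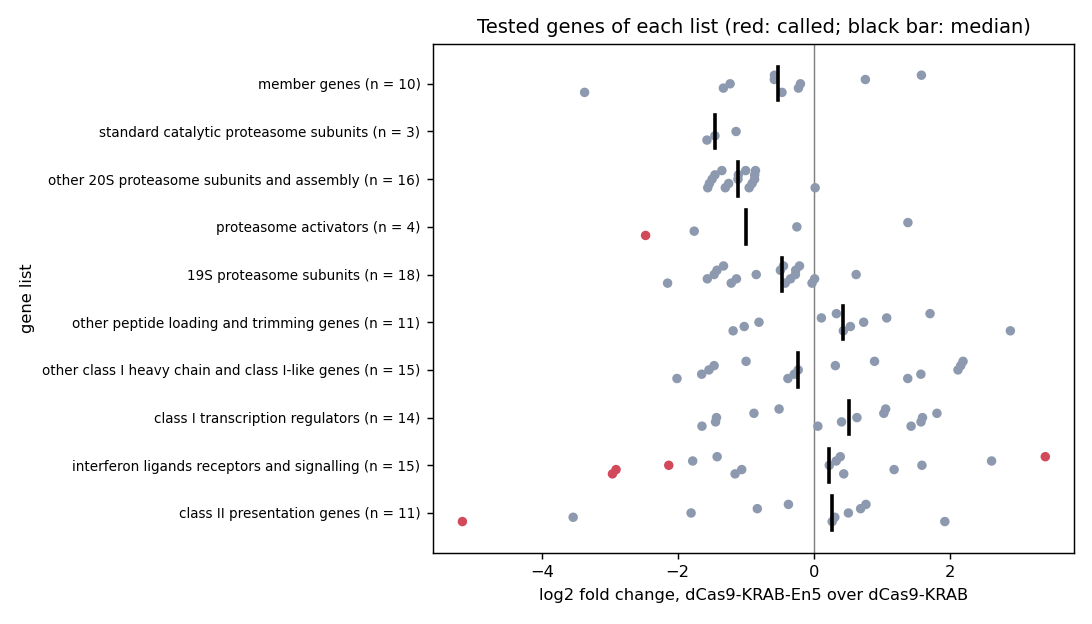
edgeR log2 fold change of every tested gene in the 10 genes and 9 further lists, with called genes in red and a bar at the median of each list. The bar of the other 20S subunits lies at -1.11 and that of the class I regulators at 0.52, and red points occur among the activators, the interferon genes and the class II genes.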

How the data were processed

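The 6 RNA-Seq libraries (day 5) were grouped by the sample labels, 3 to each group. The authors aligned the reads with HISAT2 (v2.2.1) to GRCm38 and counted them per gene with featureCounts, and the deposited counts are not normalized. The deposited TPM are the authors' counts divided by gene length and scaled per library. The annotation release and the strand setting are not given in the sources used here. Genes not listed in a file were taken as 0 counts. The ratio of counts to TPM gave the GENCODE exon length within 1% for 98.6% of genes with counts in all libraries and for 10 of 10 members.

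The counts were tested with edgeR 4.0.16 in R 4.3.3 (TMM, filterByExpr with a minimum count of 10 and a minimum total count of 15, glmQLFit, glmQLFTest), with the group as sole term and p-values adjusted by Benjamini-Hochberg over 14378 genes. The code was tested on simulated data. Standard errors are the fold change over the root of F. The cutoffs of the call follow the methods of the study. Exact permutation tests were run on log2 ratios of TPM with 0.1 TPM added. Alternatives were limma 3.58.1 on log2 of TPM with 1 or 0.1 added, DESeq2 1.42.0, other scalings, filters and cutoffs, the replicate number as a block, and leaving out each library. The comparison of groups in CPM scaled by TMM was chosen after seeing the data. Replicate numbers come from the sample titles, and no source says what a shared number marks. Deviations from the group means correlated at 0.26, 0.21 and 0.29 for same-numbered libraries and at -0.34 to -0.05 for the others. Within a group these deviations sum to 0 for each gene, so the negative values follow in part from the positive ones. The block was fitted as an alternative on this description alone. Every pair of replicates differed by more than sampling noise.

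The members and lists were chosen with earlier results of these data known. Named were the members, the standard catalytic subunits, *Psme1*, *Psme2*, *Irf1*, *Rfx5*, *Ciita*, *Ifnb1*, *Ifng*, *Myog*, up to 4 genes of smallest adjusted p from each further list, the highest or absent markers of each cell type, and the 5 genes with the highest Pearson r to the members' mean log2 CPM. Promoter sequences are from RefSeq.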

Additional observations from a re-analysis of the deposited data

How the results depend on the processing

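The count of member genes called lower was 0 with group alone in the model. It was 1 (*Psmb10*) with total counts only, with no low-count filter, with the replicate block, with DESeq2, with limma on log2(TPM + 1) or log2(TPM + 0.1), and with the adjusted p cutoff at 0.05. It ranged from 0 to 3 in the fits without 1 library, and the count called higher from 0 to 1, with the 3 and the 1 reached without dCas9-KRAB-En5 replicate 3. In CPM scaled by TMM in place of TPM, the members below in all dCas9-KRAB-En5 libraries went from 3 to 1 and those above from 0 to 2. Of 160 fits of a member under an alternative, 148 kept the direction and the side of the cutoffs, 11 passed them newly and 1 reversed, *B2m* without dCas9-KRAB replicate 2 (log2 fold change 0.092, and -0.48 to 0.092 over the fits without 1 library). The block changed no other call of a member than that of *Psmb10*. Without 1 library, the difference of log2 ratios ranged from 0.41 to 1.06 for *Psmb8* to *Psmb5*, from 0.037 (without dCas9-KRAB replicate 1) to 1.16 (without dCas9-KRAB-En5 replicate 3) for *Psmb9* to *Psmb6*, from -2.99 to -1.63 for *Psmb10* to *Psmb7*, from -0.16 to 0.12 for *Tap1* to *Tap2* and from -0.73 to -0.45 for *B2m* to the heavy chains.

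Over all genes, 890 were called. The count was 586 with total counts only, 2198 with no low-count filter, 544 with at least 10 counts in every library, 1543 with the replicate block, 2390 with DESeq2, 514 with limma on log2(TPM + 1), 2449 with that cutoff at 0.05, and 222 to 3921 in the fits without 1 library (222 without dCas9-KRAB replicate 1, 3921 without dCas9-KRAB-En5 replicate 3). The share called lower was 75.4%, and it lay between 54.3% (no low-count filter) and 97.3% (without dCas9-KRAB replicate 1). The median log2 fold change of all genes was 0.08, and it lay between -0.053 (without dCas9-KRAB-En5 replicate 3) and 0.18 (no low-count filter, and limma on log2(TPM + 0.1)). With 3 libraries a group, the 95% intervals of the members spanned more than 2 on the log2 scale.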

Other observations

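The class II presentation genes, which macrophages and other antigen-presenting cells use, were also measured. Of 12 listed, 11 were tested, 1 was called lower and 0 higher, where edgeR called 4.67% of all genes lower and 1.52% higher. The median log2 fold change was 0.27. *H2-Aa*, an alpha chain, had 294, 169 and 302 counts in the dCas9-KRAB libraries and 13, 3 and 0 in the dCas9-KRAB-En5 libraries, and it fell (log2 fold change -5.17, edgeR, adjusted p = 0.00585, up to 0.0483 in the alternatives, 9 of 14 of which called it). *H2-Ob* stood at 1.93 (edgeR, adjusted p = 0.0259) and *H2-DMb1*, which helps to load class II, at -3.54 (edgeR, adjusted p = 0.0512). *Cd74*, the invariant chain and the most abundant of the genes named here from this list, was at 473, 1179 and 1055 TPM in the dCas9-KRAB libraries and at 1213, 1786 and 746 TPM in the dCas9-KRAB-En5 libraries, with overlapping groups.

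The ratio of the classical heavy chains was chosen after the values were seen and is given with no test. *H2-D1* was 1.12-, 1.42- and 1.51-fold as high as *H2-K1* in TPM in the dCas9-KRAB libraries, and 3.02-, 3.21- and 2.30-fold in the dCas9-KRAB-En5 libraries. The means were 1.35 ± 0.21 and 2.84 ± 0.48 (SD, n = 3 each), and the libraries of the groups did not overlap. A ratio within a library is free of the scaling between libraries, but not of the limits given for the heavy chain counts. Whether the class I alleles are the same in both groups was not tested.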
